A study of Homo sapiens with 6 samples.

Results

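The RAB genes encode the largest branch of the small GTPases, and their mRNAs were described here in K562 cells and in the extracellular vesicles (EVs) that these cells release. A gene was included when the deposited gene table classes it as protein-coding and its symbol is RAB followed by a number, with an optional letter and digit, and RAB13 was left out. This rule gave 62 genes of the 68201 in the count table, of which 22824 are protein-coding. A RAB protein switches between a GTP-bound form, which sits on a membrane and recruits effector proteins, and a GDP-bound form that is drawn back into the cytosol. Exchange factors load GTP, GTPase-activating proteins speed its hydrolysis, and a lipid tail added by a geranylgeranyl transferase anchors the protein. Each RAB marks a compartment of secretion or endocytosis, and several of them, such as RAB27A, RAB27B, RAB11A, RAB35 and RAB31, are known for their part in the release or formation of EVs, so that their mRNAs form a natural group to follow from cell to vesicle.

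The samples were 3 libraries of whole untreated wild-type K562 cells (WC) and 3 of their EVs, the latter recovered by size exclusion chromatography from medium conditioned by the cells in EV-depleted serum. K562 is a line from a human chronic myeloid leukaemia with erythroid features, and as 1 line it stands for 1 genetic background. Poly(A)-primed cDNA was amplified by PCR and sequenced on nanopore flow cells, each of which carried the WC and the EV library of 1 replicate culture. Gene counts summed to between 2480560 and 3178211 in a WC library and to between 560157 and 881338 in an EV library. Levels are given as CPM, which relate a count to the size of its library, with the TMM factors of edgeR in that size, and they describe a share of sequenced RNA, since RNA per cell or per vesicle and the number of vesicles cannot be told apart in such libraries. All 10 erythroid markers checked had counts in both groups, with a summed level of 371 to 428 CPM in WC and 599 to 699 CPM in EV libraries. The single markers moved in both directions. HBG2 had 8.14 to 15.1 CPM in WC and 189 to 265 CPM in EV libraries, while TFRC had 133 to 155 and 61.6 to 70.0 CPM. HBE1 had only 3 counts in WC and 2 in EV libraries. Of 9 markers of other cell types 8 had a count in WC and 6 in EV libraries, with summed levels of 99.6 to 130 CPM and of 53.5 to 102 CPM. Most of that sum came from EPCAM and CD3D, while MS4A1 was at 0 in every library and CD3E and CD14 at 0 in every EV library. The share of mitochondrially encoded transcripts was 2.49% ± 0.246 for WC and 0.326% ± 0.0831 for EVs (SD, n = 3). The part of these differences in the results on RAB genes was not tested.

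RAB proteins hold the phosphates of GTP with a short loop, the P loop, which is a signature of the family. The stretches of 90 nt of the coding sequence below come from the canonical transcripts of GENCODE v44 on GRCh38 and are written 5′ to 3′. Each member with a higher level in EVs is shown beside a related RAB gene. RAB11A, the most abundant of the RAB mRNAs described here, is added. Capitals mark the 24 nt that encode the P loop.
RAB4A: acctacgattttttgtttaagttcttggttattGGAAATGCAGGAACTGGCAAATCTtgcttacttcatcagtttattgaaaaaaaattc
RAB4B: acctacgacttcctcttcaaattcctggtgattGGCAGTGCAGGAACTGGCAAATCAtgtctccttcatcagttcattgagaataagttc
RAB31: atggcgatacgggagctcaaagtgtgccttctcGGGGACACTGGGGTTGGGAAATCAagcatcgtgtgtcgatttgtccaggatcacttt
RAB22A: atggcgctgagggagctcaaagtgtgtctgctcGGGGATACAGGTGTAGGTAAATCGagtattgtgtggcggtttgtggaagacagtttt
RAB32: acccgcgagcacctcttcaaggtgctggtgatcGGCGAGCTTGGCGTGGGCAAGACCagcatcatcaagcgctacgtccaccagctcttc
RAB29: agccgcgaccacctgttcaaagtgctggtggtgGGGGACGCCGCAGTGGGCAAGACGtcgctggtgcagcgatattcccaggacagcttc
RAB11A: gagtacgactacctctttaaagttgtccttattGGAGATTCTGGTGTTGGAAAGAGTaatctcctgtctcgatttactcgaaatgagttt
The RAB32 stretch lies in 1 exon on the plus strand of chromosome 6, at chr6:146543932-146544021. The RAB4A stretch is joined from 3 exons on the plus strand of chromosome 1, with most of it at chr1:229286486-229286566. The RAB31 stretch is joined from 2 exons on the plus strand of chromosome 18, at chr18:9708409-9708444 and chr18:9775278-9775331. All of them are coding, and none holds untranslated sequence.

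Of the 62 RAB genes, 51 had at least 1 count in WC and 43 in EV libraries. The expression filter of edgeR kept 23 for the test, and these held 93.2% of the RAB counts in WC and 93.1% in EV libraries. RAB11A, which directs recycling endosomes to the cell surface, had the highest level in both groups, with 119, 129 and 106 CPM in the WC and 139, 136 and 119 CPM in the EV libraries. RAB2A, which acts between the endoplasmic reticulum (ER) and the Golgi, followed with 71.1, 76.3 and 67.8 CPM in WC and 68.6, 90.2 and 66.2 CPM in EV libraries. The 2 sets of values overlapped for both genes. RAB10, a RAB of exocytic and basolateral transport, had 53.2, 67.1 and 73.6 CPM in WC and 64.5, 55.5 and 54.8 CPM in EV libraries. RAB14, which works between the Golgi and early endosomes, had 46.0, 58.0 and 72.4 CPM in WC and 64.5, 60.1 and 59.4 CPM in EV libraries. RAB7A, the RAB of late endosomes and lysosomes, had 58.1, 56.9 and 70.4 CPM in WC and 49.4, 60.1 and 50.2 CPM in EV libraries. For these 3 the WC and EV libraries again overlapped, though EV replicates 1 and 3 were below every WC library for RAB7A. RAB1A, needed for transport from the ER to the Golgi, had 55.3, 59.7 and 56.4 CPM in WC and 61.7, 27.8 and 31.96 CPM in EV libraries, so that EV replicate 1 stood at the WC level and the other EV libraries below it. RAB28, a RAB of ciliated cells and photoreceptors, had 24.1, 38.6 and 38.4 CPM in WC and 15.1, 34.7 and 25.1 CPM in EV libraries, with overlap.

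**Figure D1:**
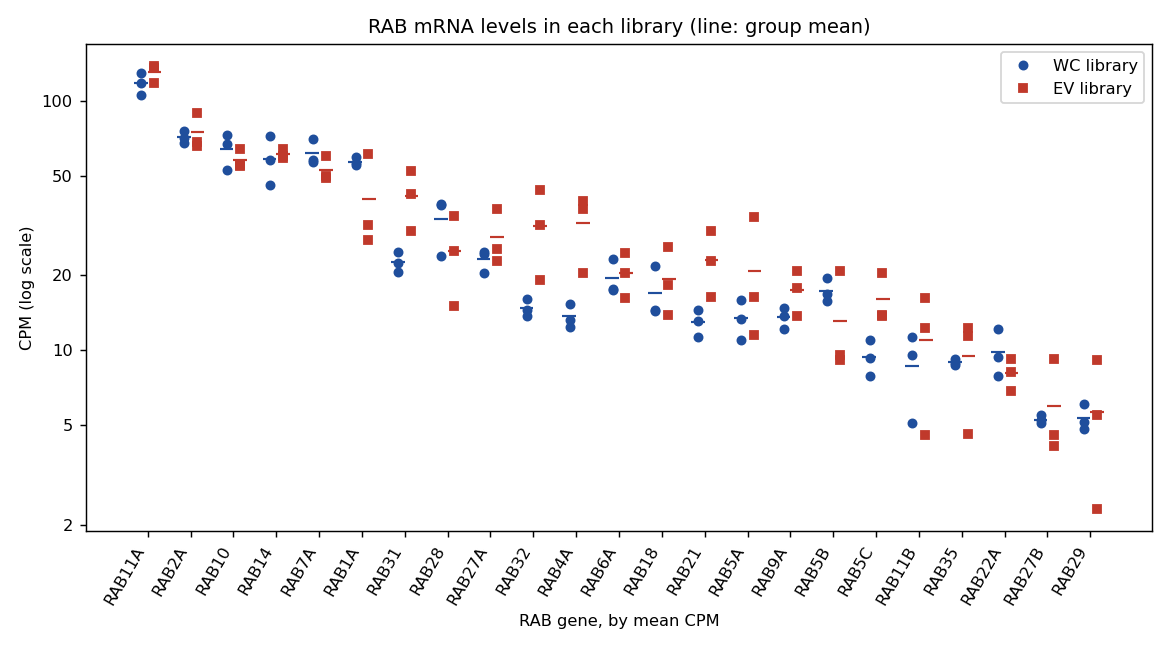
Level of each of the 23 tested RAB mRNAs in CPM on a log scale, for the 3 WC libraries (blue circles) and the 3 EV libraries (red squares), ordered by mean level, with a short line at each group mean. RAB11A is highest in both groups, and for RAB31, RAB32, RAB4A, RAB21 and RAB5C all EV points lie above all WC points.

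Per kb of the canonical transcript the order of the levels was different. This order depends on the annotated length, and the study did not fragment the RNA before sequencing. RAB11A was divided by 4895 nt, while its most abundant listed isoform had 986 nt. RAB31 was divided by 3919 nt, while the longest of the authors' isoform models had 962 nt. By reads RAB11A stayed the highest in EVs, with a mean of 131 CPM compared with 31.7 CPM for RAB32. In WC libraries RAB7A led with 28.3 ± 3.42 CPM per kb (SD, n = 3), followed by RAB11A with 24.1 ± 2.41 and RAB1A with 23.4 ± 0.941 CPM per kb. In EV libraries RAB32 led with 29.8 ± 11.6 CPM per kb, ahead of RAB11A with 26.8 ± 2.23 and RAB7A with 24.4 ± 2.74 CPM per kb. RAB32 was 8th of the 62 in WC and 1st in EV libraries on this scale, and RAB4A moved from the 16th to the 9th place. In EVs the SD ranges of the first 3 overlapped. In WC that of RAB11A overlapped those of both neighbours, while those of RAB7A and RAB1A were apart.

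Against WC, 3 RAB mRNAs rose in EVs and 0 fell at an adjusted p under 0.05 in the quasi-likelihood test of edgeR with Benjamini-Hochberg adjustment over 8716 genes. Of all genes tested, 22.8% rose and 21.4% fell, and of the 6768 protein-coding genes among them 1007 rose and 1503 fell. The RAB genes that rose, 3 of 23, were thus no larger a share than the background. At an unadjusted p under 0.05 there were 5, all with a positive change. None reached the thresholds that the study set for enrichment, a log2 fold change of at least 2 in either direction with an adjusted p of at most 0.01, which 4.53% of all genes reached in EVs and 5.93% in WC. The EV values lay entirely above the WC values for 5 RAB mRNAs and entirely below them for 0, while 18 overlapped. Over all genes the shares entirely above and entirely below were 24.9% and 30.3%. Of the 6768 tested protein-coding genes, 1182 lay entirely above and 2200 entirely below. The log2 fold change was positive for 17 and negative for 6 RAB mRNAs, with a median of 0.15, compared with a median of -0.13 over all genes and of -0.24 over protein-coding genes.

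RAB4A, which governs the fast return of receptors from early endosomes to the plasma membrane, changed most. Its level was 12.4, 13.3 and 15.4 CPM in the WC and 39.8, 37.0 and 20.5 CPM in the EV libraries. All EV values exceeded all WC values, and EV replicate 3 was the lowest of them. The level was 2.43-fold higher in EVs, a log2 fold change of 1.28 ± 0.28 (SE, n = 3) with an adjusted p of 0.000634 in edgeR. The call was kept when any 1 library was left out, with adjusted p up to 0.022, and it was lost with WC libraries thinned to the EV depth, with a log2 fold change of 0.87 and an adjusted p of 0.0836. The gene lies on the plus strand of chromosome 1 (chr1:229271062-229305894, GRCh38). Its paralogue RAB4B, close to it in the P loop sequence above, had 6 counts in WC and 0 in EV libraries and was not tested.

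RAB32, which sorts cargo to melanosomes and other lysosome-related organelles and also sits on mitochondria, had 16.1, 13.8 and 14.5 CPM in WC and 19.2, 43.9 and 31.96 CPM in EV libraries. The groups did not overlap, though EV replicate 1 was near the WC values. Its level was 2.02-fold higher in EVs, a log2 fold change of 1.02 ± 0.30 (SE) with an adjusted p of 0.00747 in edgeR. Without EV replicate 2 the log2 fold change was 0.71 with an adjusted p of 0.108, and the call was lost. It was also lost without a filter on low counts and after thinning, with adjusted p of 0.0514 and 0.185. The gene lies on the plus strand of chromosome 6 (chr6:146543833-146554953, GRCh38), and its canonical transcript of 1065 nt is the shortest of the tested RAB mRNAs.

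RAB31, also known as RAB22B, acts in early endosomes and in the formation of intraluminal vesicles. Its level was 20.6, 24.8 and 22.4 CPM in WC and 42.5, 30.1 and 52.5 CPM in EV libraries, with no overlap. This was 1.84-fold higher in EVs, a log2 fold change of 0.88 ± 0.25 (SE) with an adjusted p of 0.00546 in edgeR. Without EV replicate 3 it was 0.72 with an adjusted p of 0.0542, just outside the threshold, and without a filter on low counts the adjusted p was 0.0638. The gene lies on the plus strand of chromosome 18 (chr18:9708275-9862551, GRCh38).

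The next RAB mRNAs outside the threshold were RAB21, an early endosomal RAB of integrin traffic, and RAB5C, a member of the RAB5 family that controls fusion of early endosomes. RAB21 had a mean of 13.0 ± 1.61 CPM in WC and 23.1 ± 6.81 CPM in EV libraries, with a log2 fold change of 0.75 ± 0.31 (SE) and an adjusted p of 0.0544 in edgeR, and without EV replicate 1 the log2 fold change was 0.98 with an adjusted p of 0.0346. RAB5C had a mean of 9.40 ± 1.54 CPM in WC and 16.1 ± 3.90 CPM in EV libraries, and its change was 0.75 on the same scale with an adjusted p of 0.0971. In both genes all EV values were above all WC values. On the other side RAB28 had the lowest log2 fold change, -0.53 ± 0.31 (SE), with an adjusted p of 0.168. Without WC replicate 1, its lowest WC library, RAB28 passed as lower in EVs, with -0.77 and an adjusted p of 0.0329. For RAB1A the log2 fold change was -0.41 with an adjusted p of 0.182, and without EV replicate 1 it was -0.97 with an adjusted p of 0.00517 in edgeR. In that fit RAB2B, with 43 counts in WC libraries, also passed as lower in EVs, since both of its EV counts were in the library left out.

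**Figure D2:**
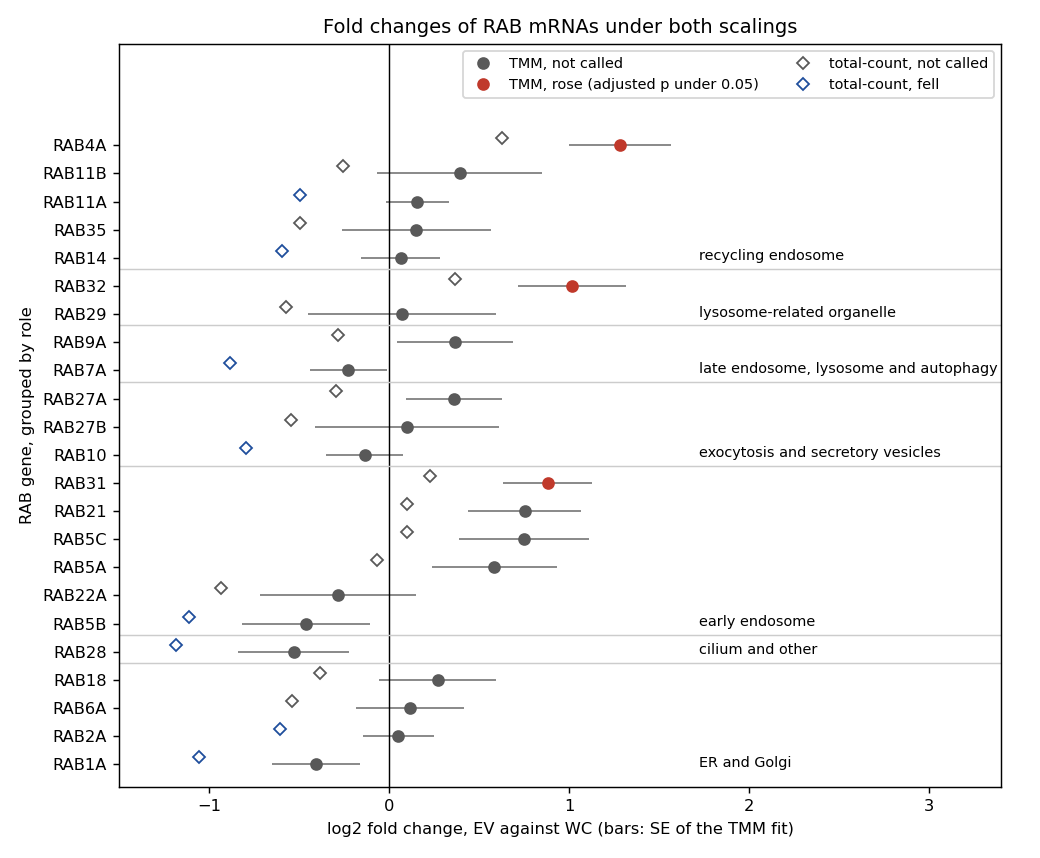
Log2 fold change of EV against WC for the 23 tested RAB mRNAs, grouped by role, with the TMM fit as circles (bars: SE; red: adjusted p under 0.05) and total-count scaling as open diamonds (blue: adjusted p under 0.05). The diamonds lie to the left of the circles in every gene, with 3 genes called higher under TMM and 8 called lower under total-count scaling.

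The calls depended on how libraries were scaled. With total counts in place of TMM factors 0 RAB mRNAs rose and 8 fell, namely RAB1A, RAB2A, RAB5B, RAB7A, RAB10, RAB11A, RAB14 and RAB28, beside 12.2% of all genes that rose and 51.6% that fell. The median log2 fold change of all genes moved from -0.13 to -0.78 between the scalings, and that of the 23 RAB mRNAs from 0.15 to -0.50, with 5 positive and 18 negative. The direction turned for 12 RAB mRNAs and stayed for 11. RAB4A, RAB31 and RAB32 stayed positive, with log2 fold changes of 0.63, 0.23 and 0.36 under total-count scaling, but lost their calls, with adjusted p of 0.0649, 0.435 and 0.279 in edgeR. A change of scaling moves all genes by about the same amount, and relative to the median of all genes RAB4A was 1.41 higher under both. As a share of protein-coding counts, with no model, RAB mRNAs held 0.146%, 0.161% and 0.174% in the WC and 0.142%, 0.133% and 0.120% in the EV libraries. The means were 0.161% ± 0.0139 and 0.131% ± 0.0109 (SD, n = 3), and all EV shares were below all WC shares. The 6 most abundant RAB mRNAs made up 59.1% ± 1.73 of all RAB reads from WC and 52.2% ± 1.67 of those from EVs.

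By role, the early endosomal RABs had the highest median. Of 8 listed, 6 were tested, 1 rose (RAB31) and 0 fell, beside 22.8% and 21.4% of all genes. The median change of these RABs was 0.67 on the log2 scale, and single values ran from -0.46 for RAB5B to 0.88. RAB5A, the best known regulator of early endosome fusion, ranged over 13.4, 10.98 and 16 CPM in WC and 16.5, 11.6 and 34.2 CPM in EV libraries, so that 1 EV library stood far above the rest. Of 8 RABs of recycling endosomes 5 were tested and 1 rose (RAB4A), with a median of 0.16, and the other members RAB11A, RAB11B, RAB14 and RAB35 had log2 fold changes between 0.06 and 0.39. Of 4 RABs of lysosome-related organelles 2 were tested, RAB32, which rose, and RAB29 with a log2 fold change of 0.07. RAB29, which recruits the kinase LRRK2, had only 5.15, 4.85 and 6.11 CPM in WC and 5.49, 2.31 and 9.13 CPM in EV libraries.

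The other roles held no member that passed the test. Of 17 RABs of the ER and Golgi 4 were tested, with log2 fold changes from -0.41 for RAB1A to 0.27 for RAB18, a RAB of ER and lipid droplets. Of 11 RABs of exocytosis 3 were tested. Among these, RAB27A, which docks multivesicular endosomes at the plasma membrane, had a mean of 23.2 ± 2.41 CPM in WC and 28.4 ± 7.56 CPM in EV libraries, and its log2 fold change was 0.36 with an adjusted p of 0.288. Its paralogue RAB27B had 5.28 ± 0.199 and 5.98 ± 2.84 CPM and a log2 fold change of 0.10. Of 9 RABs of late endosomes, lysosomes and autophagy 2 were tested, RAB7A with -0.23 and RAB9A, which returns mannose 6-phosphate receptors to the Golgi, with 0.37. RAB28 was the only 1 tested of 5 in the remaining group of ciliary and other RABs.

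Within a library the ratio of 2 genes does not depend on the scaling, and 8 pairs of related RAB genes with both members tested were compared in this way. For RAB22A over RAB31 the log2 ratio of counts, with 0.5 added to each, was -1.36, -1.38 and -0.87 in WC and -2.28, -1.59 and -2.75 in EV libraries. All EV ratios were below all WC ratios, and the mean difference was -0.9998. RAB22A itself, a RAB of endosomal recycling, had 7.90, 9.45 and 12.2 CPM in WC and 8.23, 9.25 and 6.85 CPM in EV libraries, and its log2 fold change was -0.28 with an adjusted p of 0.621 in edgeR.

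For RAB5B over RAB5C the log2 ratio was 0.61, 0.99 and 1.05 in WC and -0.49, 0.55 and -1.08 in EV libraries, a mean difference of -1.22. For RAB32 over RAB29 it was 1.62, 1.48 and 1.23 in WC and 1.69, 3.70 and 1.69 in EV libraries, a mean difference of 0.92, which was 0.24 without EV replicate 2. These 3 pairs separated the groups, each with p = 0.1 in a two-sided exact permutation test over libraries, which is the smallest p that 3 against 3 libraries can give, and 0.267 after Benjamini-Hochberg adjustment over the 8 pairs. The test took WC and EV libraries as independent and did not use their shared replicate cultures. The other 5 pairs overlapped. RAB5A over RAB5B differed by 0.95 between EV and WC libraries, with an EV SD of 1.29, and RAB5A over RAB5C by -0.27. RAB11A over RAB11B differed by -0.21 between EV and WC libraries, RAB27A over RAB27B by 0.03 and RAB2A over RAB14 by -0.04, with RAB11A above its paralogue by a log2 ratio of 3.81 ± 0.735 for WC and 3.60 ± 0.720 for EVs (SD, n = 3).

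**Figure D3:**
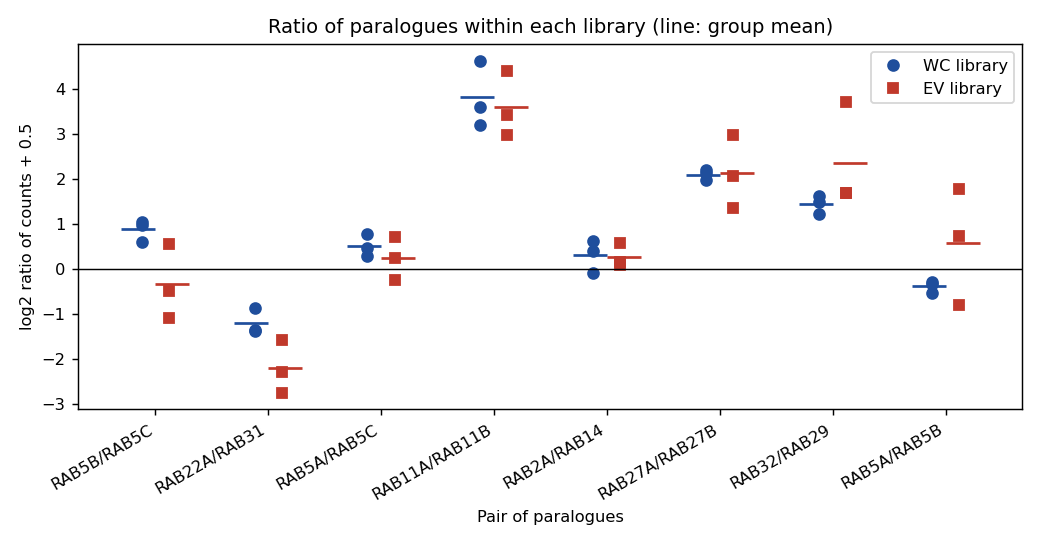
Log2 ratio of the counts of 2 paralogues, with 0.5 added to each count, within each WC library (blue circles) and EV library (red squares), for 8 pairs ordered by the difference of EV and WC means. The groups separate for RAB5B/RAB5C, RAB22A/RAB31 and RAB32/RAB29 and overlap for the other 5 pairs.

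Of the 39 RAB genes that were not tested, 19 had counts in both groups, 9 in WC only, 1 in EVs only and 10 in no library. Together they held 512 counts in WC and 89 in EV libraries. A count of 0 over the 3 libraries allows a level of up to 0.292 CPM in WC and up to 1.88 CPM in EVs (3 counts, counting error only), so that absence from EVs was less well resolved. RAB8B, a RAB of exocytosis, had 56 counts in WC and 6 in EV libraries, RAB6B, the neuronal RAB6, had 51 and 8, and RAB20, a RAB of phagosomes, had 47 and 6. RAB34 was the member with a count only in EVs, a single read. No count was found for RAB3C, RAB7B, RAB9B, RAB17, RAB19, RAB24, RAB25, RAB37, RAB38 and RAB41, several of which are known from epithelial, pigment or nerve cells. WC only were RAB3A, RAB3D, RAB4B, RAB33A, RAB36, RAB39A, RAB39B, RAB42 and RAB44, with 1 to 8 counts each.

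RAB6C and RAB6D are nearly identical genes on chromosome 2, and both are close to RAB6A, a RAB of the Golgi, and reads may be split among them by the counting. Their coding sequences were 99.5% identical over 765 nt. Aligned to RAB6A transcripts, those of RAB6C and RAB6D were 94.7% and 95.0% identical over 777 nt. This stretch is longer than the RAB6A coding sequence of 627 nt. Aligned from that RAB6A coding sequence, the identities to RAB6C and RAB6D were 91.85% and 92.01% over 626 nt. The stretches around the P loop show this, with capitals at the bases that differ from RAB6A.
RAB6A: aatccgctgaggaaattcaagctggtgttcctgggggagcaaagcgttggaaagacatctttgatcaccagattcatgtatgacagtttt
RAB6C: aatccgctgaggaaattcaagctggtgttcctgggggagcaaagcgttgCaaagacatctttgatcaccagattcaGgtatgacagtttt
RAB6D: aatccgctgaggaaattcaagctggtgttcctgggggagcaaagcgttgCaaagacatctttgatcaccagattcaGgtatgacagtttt
RAB6C lies here on the plus strand at chr2:129980140-129980229 and RAB6D on the minus strand at chr2:131363607-131363696, each in a single exon, while the RAB6A stretch spans 2 exons on the minus strand of chromosome 11. The P loop pattern that a search of the canonical coding sequences found in 58 of 62 RAB genes was not found in RAB6C, RAB6D, RAB40B and RAB40C. RAB6C had 11, 13 and 20 counts in WC and 10, 3 and 3 in EV libraries, and RAB6D had 11, 15 and 24 in WC and 11, 3 and 2 in EV libraries. Their levels were 4.31 ± 1.33 and 4.86 ± 1.83 CPM in WC and 9.17 ± 3.94 and 8.86 ± 5.52 CPM in EV libraries, with EV replicate 1 the highest for both, and neither gene was tested. RAB6A had 19.5 ± 3.29 CPM in WC and 20.5 ± 4.25 CPM in EV libraries. Since reads can be exchanged among the 3, the level of each single gene is uncertain.

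Genes that act on RAB proteins were listed beside the RAB genes, and the lists were not tested against each other. Of 134 listed genes 61 were tested, of which 4 rose and 12 fell, beside 22.8% and 21.4% of all genes, so that the count that fell is near the background. Their changes were positive for 21 and negative for 40, with -0.42 as the median on the log2 scale, compared with -0.13 for all genes and -0.24 for protein-coding genes. Under total-count scaling 1 rose and 39 fell, and with DESeq2 2 rose and 7 fell, since RABGGTA, RABGGTB, HPS1, TBC1D9B and INPP5B were among those that then missed the threshold, with adjusted p between 0.0513 and 0.115 in DESeq2. In prenylation and membrane extraction, 6 of 8 were tested. CHML, an escort protein that presents RABs to the geranylgeranyl transferase, rose in EVs, where it had 29.3 ± 6.23 CPM compared with 10.9 ± 1.04 CPM in WC (SD, n = 3), a log2 fold change of 1.41 with an adjusted p of 0.000333 in edgeR. The subunits of that transferase moved apart, with RABGGTB at a log2 fold change of 0.90 (adjusted p of 0.0125) and RABGGTA at -2.21 (adjusted p of 0.0109). Of RABGGTA the EV libraries held a mean of 1.99 ± 0.535 CPM, near what a few reads give, and its call was lost without EV replicate 1, with an adjusted p of 0.0652. RABGGTB lost its call without WC replicate 3, with an adjusted p of 0.052, and without EV replicate 3, with a log2 fold change of 0.39 and an adjusted p of 0.324. GDI2, a dissociation inhibitor that keeps GDP-bound RABs soluble, had 147 ± 12 CPM in WC and 135 ± 29.1 CPM in EVs, and its log2 fold change was -0.10.

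Of 34 listed exchange factors 11 were tested, with 1 higher and 3 lower. Over all genes 22.8% rose and 21.4% fell, so that the 3 of 11 are near that share. HPS1 and HPS4 form the exchange factor of RAB32 and RAB38, and they moved in opposite directions. HPS1 rose from 3.53 ± 1.44 to 10.99 ± 3.58 CPM, a log2 fold change of 1.63 with an adjusted p of 0.00652 in edgeR, and HPS4 fell from 19.8 ± 3.88 to 4.88 ± 2.33 CPM, a log2 fold change of -1.98 with an adjusted p of 0.000803. MADD, which activates RAB3 and RAB27 proteins, had a log2 fold change of -1.61 with an adjusted p of 0.00764. Without EV replicate 1 the calls of HPS1 and MADD were lost, with adjusted p of 0.0703 and 0.127. GAPVD1, a RAB5 exchange factor, was the most abundant at 143 ± 33.6 CPM in WC and 244 ± 115 CPM in EV libraries, and its log2 fold change of 0.74 had an adjusted p of 0.167. With the replicate number as a block it was 0.68 with an adjusted p of 0.00838, and without EV replicate 1 it was 1.08 with an adjusted p of 4.63e-07.

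Of 38 listed GTPase-activating genes 16 were tested, 0 rose and 3 fell, which is near the 21.4% of all genes that fell. These were TBC1D9B, known to act on RAB11A, with a log2 fold change of -2.32, RABGAP1L with -0.91 and TBC1D7, a subunit of the TSC complex, with -0.83, and their adjusted p in edgeR were 0.0187, 0.00645 and 0.0149. TBC1D9B had 6.38 ± 1.58 CPM in WC and 1.22 ± 1.15 CPM in EV libraries, and its call was lost without EV replicate 1 or EV replicate 2, with adjusted p of 0.0721 and 0.0859, as was that of TBC1D7 without EV replicate 3, with 0.0635. TBC1D9B had 15, 32 and 20 counts in WC and 1, 0 and 1 in EV libraries. It passed the expression filter through WC alone, so that a gene this low in EVs could only be called lower. RABGGTA, HPS4, MADD and INPP5B were likewise kept by their WC counts, which limits their calls as lower. Of 54 listed effectors 28 were tested, 1 rose and 4 fell, neither a larger share than the 22.8% and 21.4% of all genes. RILPL2, which binds RAB8 and RAB10, fell from 22.1 ± 1.16 to 7.65 ± 1.38 CPM, a log2 fold change of -1.55, and INPP5B, an inositol phosphatase bound by several RABs, fell from 11.9 ± 0.904 to 3.98 ± 1.07 CPM, a log2 fold change of -1.65. Their adjusted p were 0.00131 and 0.00954 in edgeR, and INPP5B lost its call without EV replicate 1, with 0.0793. VPS35, the core of retromer, had a log2 fold change of -0.53 with an adjusted p of 0.0457, which became 0.062 with the replicate block, 0.0909 without WC replicate 2 and 0.206 without EV replicate 3. SNX2, also of the retromer pathway, had -0.17. The effector that rose was SNX5, with 0.82, and UNC13D was the other that fell, with -0.88, both named after their values were seen.

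**Figure D4:**
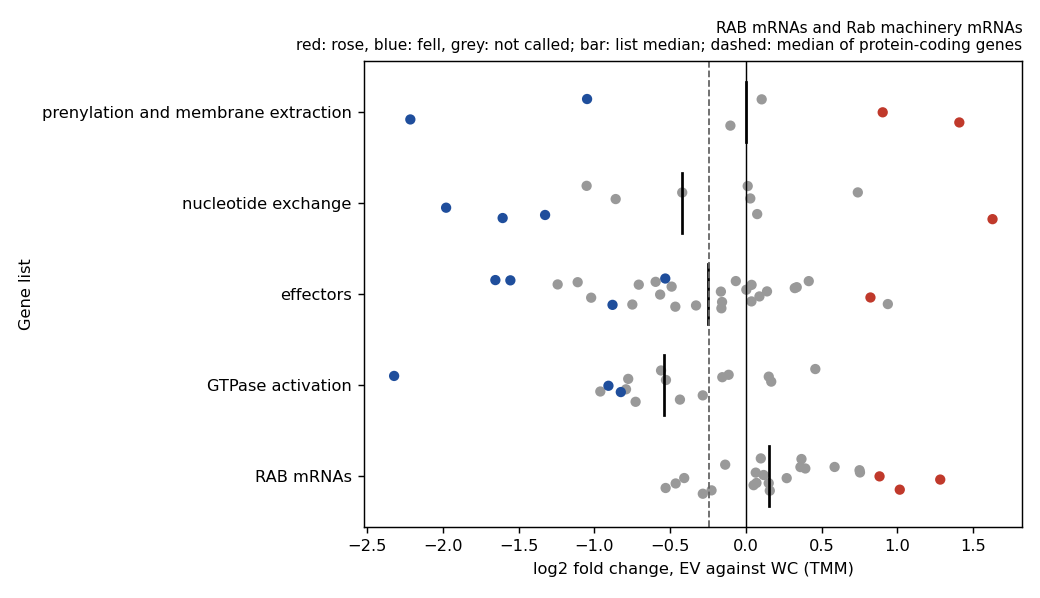
Log2 fold change of EV against WC under TMM scaling for the 23 tested RAB mRNAs and for the tested genes of 4 groups that act on RAB proteins (red: rose, blue: fell, grey: not past an adjusted p of 0.05), with the median of each list as a bar and that of protein-coding genes as a dashed line. RAB mRNAs lie between -0.53 and 1.28, while the genes that act on them spread from -2.32 to 1.63.

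Annotated transcript length moved little with the change. These lengths were not those of the authors' isoform models in every gene. The only model of RAB21 was 1539 nt long, against 15558 nt annotated, and those of RAB31 were at most 962 nt. How the length of the sequenced isoforms relates to the change was not tested. Across the 23 tested RAB mRNAs Spearman's rho between canonical length and log2 fold change was -0.20 and Pearson's r with log2 length was -0.13, as a description over genes of the same libraries. Over 6759 tested protein-coding genes rho was -0.24. The lengths ran from 1065 nt in RAB32 to 15558 nt in RAB21, which is nearly all 3′ untranslated region (14613 nt), and both of these genes had higher levels in all EV libraries than in any WC library.

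Isoform models were built by the authors with FLAIR from long reads, and they held 147 models for 41 RAB genes. Of these, 66.7% were predicted to be productive, 19.7% to carry a premature stop codon, 11.6% to lack a start codon and 2.04% to lack a stop codon, compared with 57.3%, 23.7%, 15.8% and 3.25% over protein-coding genes. Annotated transcripts made up 51.0% of the RAB models and 34.8% of those of protein-coding genes. RAB32 had 1 model, productive and 1065 nt long. RAB4A had 9, of which 4 were productive and 4 had a premature stop, and RAB31 had 7, of which 1 was productive, 3 had a premature stop and 3 had no start codon. All 6 models of RAB11A and all 6 of RAB1A were productive. Models are not weighted by their reads.

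The table of isoform abundance holds 37 isoforms of 25 RAB genes, each with the authors' mean normalized count over the 6 libraries, so that no spread can be given. The other models of the 147 have no value there, so each percentage below is a share of the listed isoforms of a gene. For RAB11A the annotated RAB11A-201 had a mean of 52.1, which was 59.6% of the RAB11A sum, and 2 unannotated isoforms had 18.9% and 12.6%. For RAB4A, with 9 models, the annotated RAB4A-201 had 67.5% and an unannotated isoform of 2497 nt had 32.5%, and no other isoform was listed. RAB1A was split between RAB1A-203 with 6 exons and RAB1A-204 with 4 exons, at 69.0% and 31.0%. Among the listed isoforms of RAB2B, RAB5A and RAB8A the larger share went to isoforms not predicted to be productive. The 1 listed isoform of RAB2B, unannotated, had no start codon called, so that its share was fixed. Of the 3 models of RAB2B, 1 was predicted to be productive. In RAB5A an unannotated isoform of 2532 nt with a premature stop codon held 73.6%, and in RAB8A the annotated RAB8A-201, for which no start codon was called, held 75.8%. In RAB27A an unannotated productive isoform held 71.0%.

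In 8 of the 25 genes the summed isoform mean was above the gene's own mean normalized count, and in 7 of the 24 with a gene mean above 0. Of 4739 protein-coding genes with a gene mean above 0 it was so in 22.9%. Isoform and gene means come from separate counting runs of the authors, so their scales need not be equal. The 8 were RAB1B, RAB2B, RAB4B, RAB5C, RAB8A, RAB11B, RAB24 and RAB32. For RAB32 and RAB2B the ratios were only 1.016 and 1.041, too near equality to order the means. The gap was widest for RAB1B, RAB4B and RAB24, the last with no gene count at all. RAB1B, the sister of RAB1A, had an isoform mean of 21.0 and 2 gene counts in all, and RAB8A, a RAB of ciliary and basolateral transport, had an isoform mean of 20.3 against a gene mean of 4.01. Exons of 7 of these genes, all but RAB32, are shared in part with other annotated genes. Of the exon bases of RAB1B 43.8% are also in exons of other genes, and of those of RAB8A 43.95%, mostly lncRNAs on the opposite strand. The median share was 35.1% in the 8 genes and 0 in the other 17. Whether such reads were left out of the gene counts was not tested, and the gene counts of RAB1B, RAB4B, RAB8A and RAB24 are accordingly uncertain. Among the 3 genes that rose, RAB31 and RAB32 share no exon base with another gene and RAB4A shares 5.47%, all with genes on the opposite strand.

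**Figure D5:**
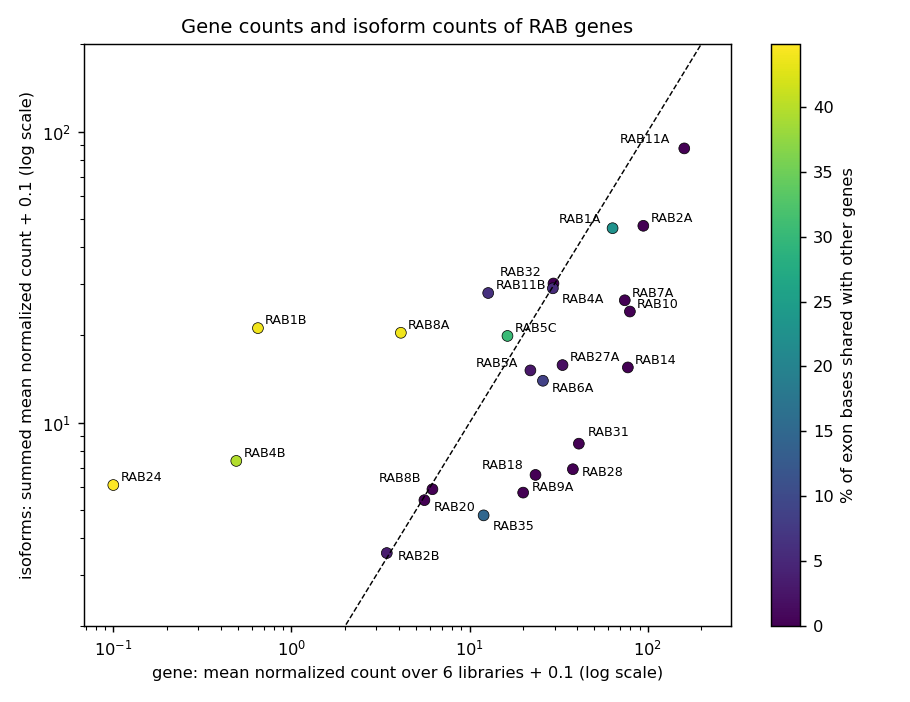
Sum of the authors' mean normalized isoform counts against the authors' mean normalized gene count over 6 libraries for 25 RAB genes, both with 0.1 added and on log scales, coloured by the percentage of exon bases shared with other genes, with a dashed line where both are equal. RAB24, RAB4B, RAB1B and RAB8A lie far to the left of the line, and RAB32 and RAB4A lie on it.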

How the data were processed

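RNA of 3 WC and 3 EV libraries was sequenced with the nanopore PCR-cDNA barcoding kit. The authors called bases with Guppy, mapped reads to hg38 (GRCh38) with minimap2 and assigned them to GENCODE v41 genes with featureCounts, and the deposited gene counts are raw. The strand setting is not given in the sources used here. In the deposited normalized table (signal), the authors scaled the counts of each library by its DESeq2 size factor. The deposited isoform means come from the authors' FLAIR run with DESeq2. Fold changes and p-values of the authors' comparisons were not used.

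Of 68247 lines 46 repeated IDs were dropped. edgeR 4.0.16 in R 4.3.3 was fitted over the 8716 genes that its filter kept, with TMM factors from 1.20 to 1.31 (WC) and from 0.76 to 0.84 (EV), a robust quasi-likelihood test and Benjamini-Hochberg adjustment. CPM used effective library sizes. Floors cover counting error only. SDs are over the 3 libraries of a group and SEs are those of the edgeR fit, so both include the spread between libraries. Lengths, overlaps and sequences came from GENCODE v44, where all 62 members were found, and copies from blastn 2.17.0 (at least 90% identity over 300 nt of coding sequence). The P loop was searched as the translated pattern of the Walker A motif. The scripts were tested on simulated data. For the edgeR fit these had 1 common dispersion of 0.0184 and changes in a small part of the genes. They held no general shift between the groups, so the choice of scaling was not tested by them. Replicate numbers pair the libraries, since the WC and EV library of a number came from 1 culture and flow cell according to the study. The correlations of their deviations from the group means were 0.062, 0.024 and 0.0044. Cultures are the replicates.

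The members and gene lists were chosen with earlier results of these data known. Every member may be named. All library values are given for members past an adjusted p of 0.05, for the 8 highest and for a paralogue pair of opposite sign with 1 member past it. Of the genes that act on RABs, those past an adjusted p of 0.05 with an absolute log2 fold change of at least 1 and the 2 highest of each group are named, except for items that are not reported here. Alternatives were RLE and total-count scaling, DESeq2 1.42.0, no filter or a mean of 5 counts, the replicate number as a block, thinning of the WC libraries to EV depth, and leaving out each library. Other tools were pandas 2.3.3, scipy 1.17.1 and matplotlib 3.10.9.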

Additional observations from a re-analysis of the deposited data

Results flagged for a closer look

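For 3 RAB genes the isoform table held a signal where the gene counts were at or near 0. The mean normalized isoform count was 21.0 for RAB1B, 6.01 for RAB24 and 7.29 for RAB4B, compared with gene counts, summed over all 6 libraries, of 2, 0 and 6. Of the exon bases of RAB24 44.8% are shared with MXD3 on the same strand, and those of RAB4B overlap the readthrough genes MIA-RAB4B and RAB4B-EGLN2. The part of these overlaps in the difference was not tested, and the isoform table gives no value per library.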

How the results depend on the processing

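The counts of RAB mRNAs that rose and fell, 3 and 0, were the same with RLE size factors, a mean of at least 5 counts, the replicate block and DESeq2. Total-count scaling gave 0 and 8, and 1 rose without a filter on low counts (RAB4A) and 1 with WC libraries thinned to the EV depth (RAB31). Leaving out 1 library in turn gave 2 to 4 that rose and 0 to 2 that fell. The log2 fold change then ranged from 1.03 to 1.48 for RAB4A, from 0.72 to 1.03 for RAB31 and from 0.71 to 1.33 for RAB32. For genes that act on RABs, 4 that rose and 12 that fell became 1 and 39 with total-count scaling, 2 and 7 with DESeq2 and 2 and 6 after thinning, 7 rose with a mean of 5 counts, and leaving out a library gave 2 to 7 and 9 to 13. Over all genes, 1066 rose and 4494 fell with total-count scaling and 1215 and 1125 after thinning, when fewer genes were tested. The share of all gene counts, in place of protein-coding counts, held by RAB mRNAs was 0.0899% in WC and 0.0631% in EVs. The replicate block changed the call of GAPVD1, to a log2 fold change of 0.68, and of VPS35, to an adjusted p of 0.062 in edgeR, and of no tested RAB gene.

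Signs turned in genes with small changes, none of them called under TMM. Under total-count scaling the log2 fold change was -0.50 for RAB11A, -0.60 for RAB2A, -0.60 for RAB14, -0.29 for RAB27A, -0.54 for RAB6A, -0.39 for RAB18, -0.068 for RAB5A, -0.28 for RAB9A, -0.26 for RAB11B, -0.50 for RAB35, -0.54 for RAB27B and -0.57 for RAB29, a shift of the whole scale by construction. Without a filter it was -0.054 for RAB11A, -0.16 for RAB2A, -0.14 for RAB14, -0.085 for RAB6A, -0.052 for RAB35, -0.10 for RAB27B and -0.13 for RAB29. With DESeq2 it was -0.062 for RAB2A, -0.045 for RAB14, -0.0022 for RAB6A and -0.039 for RAB29, and after thinning -0.083 for RAB2A and -0.0057 for RAB6A. Leaving out 1 library gave -0.092 to 0.11 for RAB2A, -0.14 to 0.17 for RAB14, -0.12 to 0.24 for RAB6A, -0.11 to 0.44 for RAB18, -0.19 to 0.41 for RAB35, -0.30 to 0.35 for RAB27B, -0.33 to 0.35 for RAB29 and -0.44 to 0.051 for SNX2. The cause of these turns was not tested. With 1293 RAB counts over the EV libraries against 7535 in WC, the EV depth limits how closely changes of RAB genes could be measured. A low EV count alone did not keep a gene from the test, since RAB27B and RAB29 were tested with 9 EV counts each.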
